A study of Mus musculus with 16 samples.

Results

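The 39 Hox cluster genes of the mouse were examined for open chromatin in 16 ATAC-seq peak lists. They are the protein-coding genes of build mm10 whose symbol is Hoxa, Hoxb, Hoxc or Hoxd followed by a number, 39 of 21883 protein-coding genes. ATAC-seq marks accessible DNA by the insertion of a transposase, and a peak is a stretch where insertions pile up. The Hoxa cluster holds 11 of the genes on chromosome 6 (52155367 to 52260880), Hoxb holds 10 on chromosome 11 (96194316 to 96368254), Hoxc holds 9 on chromosome 15 (102921131 to 103036856) and Hoxd holds 9 on chromosome 2 (74668225 to 74765142). Each cluster was taken with 50 kb on either side. A gene was said to have an end peak where a peak lay within 1 kb of either end of its annotated span.

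All libraries came from mouse embryonic stem cells (ESCs) with an Rx:GFP knock-in, a fluorescent reporter at Rax, a transcription factor gene of the eye field. The embryoid body groups were the Wdr5 and p53 double knockout (DKO), whose labels give no day and name no plasmid, and the parental line at day 4. They were aggregates grown by the SFEBq method, which leads to neural and retinal tissue, in GMEM with 5% KSR, with 2% matrigel added at day 1. The ESC groups, maintained in 2i+LIF, were DKO cells stably carrying the backbone plasmid, DKO cells with S91K-Y191F mutant WDR5, DKO cells with wild-type WDR5 (WDR5WT), 2 clones lacking p53 alone (C9 and H9), and the parental line. The rescue WDR5 is human by the series title, C9 and H9 are single clones, and each of the 8 groups had 2 replicates. The labels do not say that replicates were separate cultures, so each p-value below measures only the spread between these libraries.

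Hox genes encode homeodomain transcription factors that pattern the body axis. Within a cluster they lie in the order in which they are expressed from head to tail, so that low numbers (anterior, 1 to 4) mark the hindbrain and high numbers (posterior, 9 to 13) the trunk end. In pluripotent cells the clusters are classically held silent by Polycomb complexes, while MLL and COMPASS methyltransferases, of which WDR5 is a scaffold subunit, keep active Hox genes on. Forebrain and retina, towards which SFEBq cultures are directed, form in front of the Hox-expressing territory.

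The start windows of Hoxd1, Hoxd9 and Hoxd10 are shown because they were among the few Hox start windows with a peak in ESCs. That of Hoxd4 is shown as an example of the many Hox windows with none in any of the 16 lists. Each window runs from 250 bases before to 50 after a RefSeq start (GRCm38.p6, plus strand). Capitals mark bases covered in every ESC list that had a peak over that window, which were 4 lists for Hoxd1, 3 for Hoxd9 and 4 for Hoxd10. The windows are chr2:74762730-74763029 for Hoxd1, chr2:74697513-74697812 for Hoxd9, chr2:74691641-74691940 for Hoxd10 and chr2:74721728-74722027 for Hoxd4.
Hoxd1: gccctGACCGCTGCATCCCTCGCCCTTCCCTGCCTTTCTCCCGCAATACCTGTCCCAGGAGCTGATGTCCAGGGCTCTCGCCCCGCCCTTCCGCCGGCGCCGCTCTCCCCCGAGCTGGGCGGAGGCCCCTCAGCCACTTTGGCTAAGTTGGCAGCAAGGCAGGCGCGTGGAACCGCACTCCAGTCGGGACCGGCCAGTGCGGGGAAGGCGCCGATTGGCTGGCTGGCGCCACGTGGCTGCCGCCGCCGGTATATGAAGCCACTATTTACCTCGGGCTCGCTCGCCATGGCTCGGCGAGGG
Hoxd9: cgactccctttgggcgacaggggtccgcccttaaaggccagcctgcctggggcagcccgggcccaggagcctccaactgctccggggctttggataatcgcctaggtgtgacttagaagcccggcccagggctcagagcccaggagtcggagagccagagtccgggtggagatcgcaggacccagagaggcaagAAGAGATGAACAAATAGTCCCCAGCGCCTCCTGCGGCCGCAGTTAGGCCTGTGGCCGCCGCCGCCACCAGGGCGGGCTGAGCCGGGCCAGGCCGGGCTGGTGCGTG
Hoxd10: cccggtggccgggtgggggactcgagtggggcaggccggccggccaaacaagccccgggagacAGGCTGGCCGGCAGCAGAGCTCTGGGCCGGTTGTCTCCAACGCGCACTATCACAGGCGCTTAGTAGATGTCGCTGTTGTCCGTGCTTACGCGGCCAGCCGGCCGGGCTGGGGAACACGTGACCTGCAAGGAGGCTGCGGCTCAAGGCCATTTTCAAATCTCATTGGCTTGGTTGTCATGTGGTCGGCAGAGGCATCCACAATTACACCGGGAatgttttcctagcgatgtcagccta
Hoxd4: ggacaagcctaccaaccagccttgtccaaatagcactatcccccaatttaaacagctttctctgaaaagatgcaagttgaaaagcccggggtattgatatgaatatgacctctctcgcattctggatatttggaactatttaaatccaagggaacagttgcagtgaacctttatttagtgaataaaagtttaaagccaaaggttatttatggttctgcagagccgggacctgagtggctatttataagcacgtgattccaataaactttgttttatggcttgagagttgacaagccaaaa
The covered part was 295 of 300 bases at Hoxd1, 106 at Hoxd9 and 212 at Hoxd10. Hoxd1 had a GC content of 69.7% with 29 CpG dinucleotides, Hoxd9 68.3% with 20, and Hoxd10 62.7% with 22. The Hoxd4 window had a GC content of 39.7%, the lowest of the 24 Hox windows, and 4 CpG. It is thus an extreme case. The other Hox windows with no peak in any list had GC contents from 42.3% (Hoxb8, 13 CpG) to 64.0% (Hoxa3, 20 CpG).

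The RefSeq promoter table held 24 start windows of 22 of the 39 Hox genes. Of these windows, 4 overlapped a peak in at least 1 ESC list, the fourth being the second start of Hoxd11 (chr2:74682073-74682372), covered in WDR5WT replicate 2 alone. Those 4 windows had 20 to 29 CpG, against 4 to 45 (median 13) in the 20 Hox windows with no ESC peak and a median of 7 over all 32851 windows of the table. The ranges overlapped. The start window of Hoxa13, a posterior gene for limb ends and the urogenital tract, had the highest GC content of the 24 at 81.0% and 45 CpG but no peak in any ESC list. Hoxd10 and Hoxd11 had no end peak in any list although these inner start windows were covered, because their annotated spans begin further upstream.

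Motifs known for Hox partners were searched on both strands of all windows. The PBX-HOX composite site TGATNNAT was found in 4 of 24 Hox windows (16.7%) and in 8.85% of all windows. The MEIS and PREP site TGACAG was in 2 Hox windows (8.33%) and in 19.2% of all windows. AGGTCA, a core repeat in sites of retinoic acid receptors and many other nuclear receptors, was in 7 Hox windows (29.2%) and in 16.3% of all windows. These are descriptions of letters in the windows, and no binding was measured. None of the 3 motifs is contained in another.

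MicroRNA genes also lie in the clusters, and 4 mature forms are shown because they fall into 2 seed groups and because peaks near Mir196b were called in one embryoid body group alone. The sequences are from RefSeq (GRCm38.p6) and capitals mark the seed, bases 2 to 8.
mmu-miR-196b-5p: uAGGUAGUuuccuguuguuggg
mmu-miR-196a-5p: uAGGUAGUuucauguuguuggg
mmu-miR-10a-5p: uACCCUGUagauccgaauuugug
mmu-miR-10b-5p: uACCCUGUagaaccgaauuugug
The miR-196 family is known to target Hox transcripts. Mir196b in the Hoxa cluster had a peak within 1 kb in both parental embryoid body lists and in neither DKO list. This peak is a Hoxa10 end region that is given again below. Of the Hox cluster regions, 4.62% had this pattern, against 4.27% of all regions. Mir615 in the Hoxc cluster had a peak within 1 kb in DKO replicate 2 and parental replicate 2. Mir10a in the Hoxb cluster had one in DKO replicate 2 and parental replicate 1, whereas Mir10b in Hoxd and both Mir196a genes had none in the 16 lists. No ESC list had a peak within 1 kb of any of these microRNAs.

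The lists differed greatly in length, and this bears on every comparison of ESCs. DKO embryoid bodies had 78106 and 93646 peaks and parental embryoid bodies 90436 and 75673. In ESCs, backbone lists held 1535 and 2492 peaks, S91K-Y191F 5174 and 16257, WDR5WT 29779 and 32709, clone C9 26305 and 31782, clone H9 30780 and 31130, and parental 24367 and 5330. The files give no read counts, so sequencing depth is unknown and no counting error can be set on a value. In embryoid bodies, end peaks of the 10 ESC markers were seen at 8 and 9 genes in DKO and 9 and 9 in parental lists. In ESCs the same markers had them at 7 to 9 genes in the lists of WDR5WT, C9, H9 and parental replicate 1, at 6 in S91K-Y191F replicate 2 and at 1 to 3 in the 4 shortest lists. Esrrb, a pluripotency factor gene, had an end peak in neither DKO and both parental embryoid body lists. The 10 neuroectoderm and eye field markers had them at 8 and 9 in DKO and 10 and 10 in parental embryoid bodies. Of these, Six3, an eye field transcription factor gene, was called in neither DKO and both parental lists. Over all genes, 0.818% had this pattern, as Esrrb and Six3 did, and 0.695% had the reverse. Markers of other types were not absent, since 7 of 8 mesoderm and 4 of 6 fibroblast markers had end peaks in all 4 embryoid body lists. Of 6 endoderm markers, 4 and 3 had them in DKO and 4 and 4 in parental embryoid bodies, and of 5 trophectoderm markers, 3 and 3 in DKO and 3 and 4 in parental embryoid bodies.

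The Hox clusters held more peaks in embryoid bodies than in ESCs, in number and as a share of each list. DKO embryoid bodies had 68 and 84 Hox cluster peaks and parental embryoid bodies 94 and 73. ESC lists had 0 to 13, with 0 in both backbone lists, in S91K-Y191F replicate 1 and in parental replicate 2. As a share of the list these were 0.0871% and 0.0897% in DKO and 0.104% and 0.0965% in parental embryoid bodies, against 0 to 0.0397% in ESC lists. Of the Hox genes, 14 and 25 had an end peak in DKO embryoid bodies and 25 and 24 in parental embryoid bodies, against 0 to 6 in the ESC lists. Embryoid body and ESC lists were made in different ways, so signal levels were not compared between them. The embryoid body lists were also longer, at 75673 to 93646 peaks against at most 32709 in ESCs. By fold, the best rank of a Hox peak was 17847 and 14284 in DKO and 15833 and 6323 in parental embryoid bodies. Embryoid body and ESC lists were not compared at equal length, so the part of list length in these numbers and shares was not tested.

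**Figure D1:**
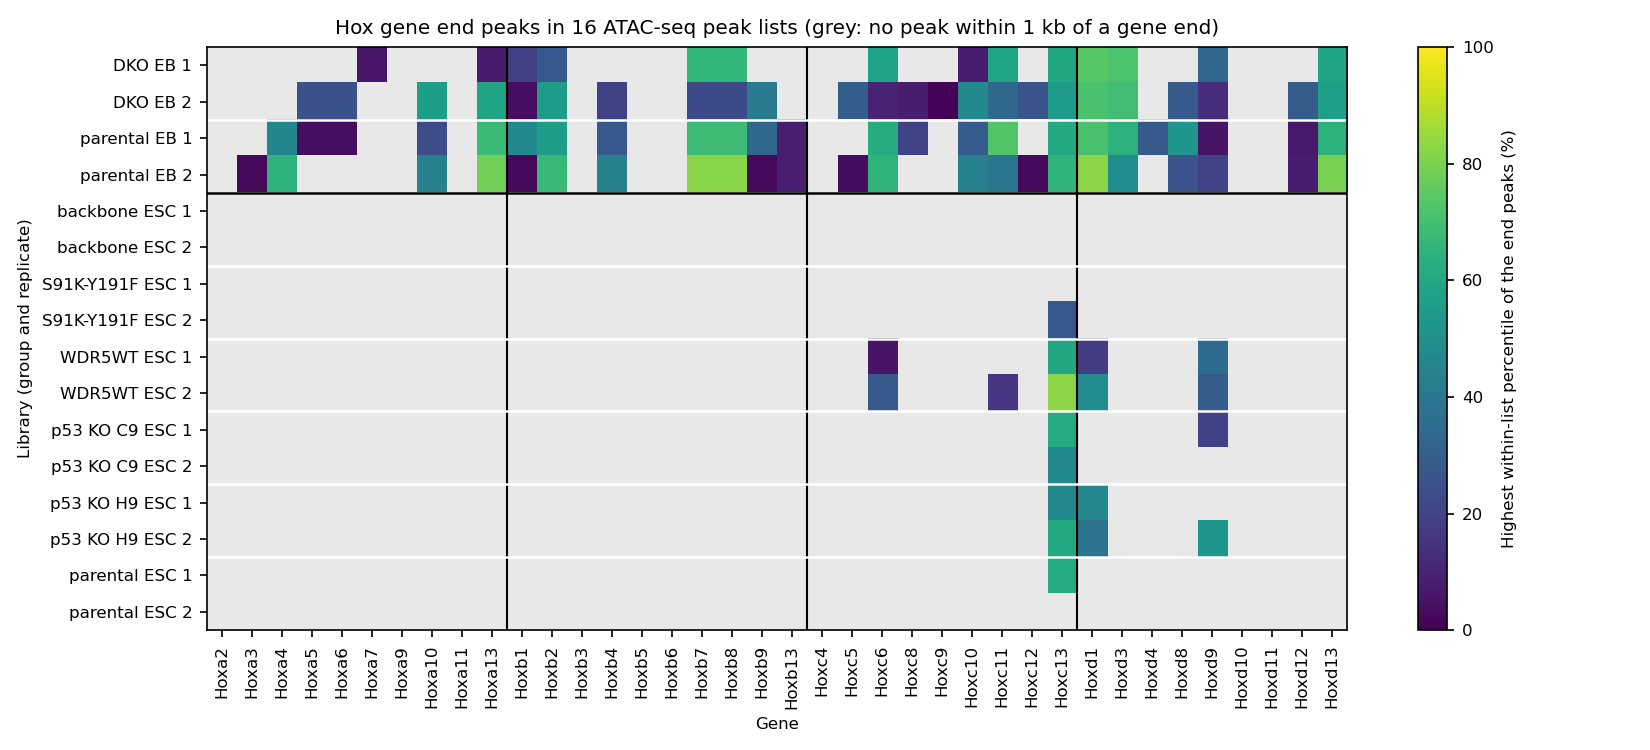
End peaks of 38 Hox genes (columns, by cluster) in the 16 peak lists (rows). Colour gives the highest within-list percentile of a gene's end peaks in %, and grey means no end peak. Embryoid body rows are well filled, 13 genes being coloured in all 4, whereas ESC rows are grey except at Hoxc6, Hoxc11, Hoxc13, Hoxd1 and Hoxd9.

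The share of Hox genes with an end peak lay below that of all protein-coding genes in each of the 16 lists. In embryoid bodies the Hox share was 35.9% and 64.1% in DKO lists and 64.1% and 61.5% in parental lists. Over all protein-coding genes it was 64.6% and 66.4% in DKO lists and 66.7% and 65.3% in parental lists. Thus, by end peaks, 3 lists lay near the genome-wide share, and DKO replicate 1 lay far below it. By start windows, all 4 lists lay far below it. The Hox share, for the 22 genes in the promoter table, was then 22.7% and 45.5% in DKO and 40.9% and 31.8% in parental lists. Over all protein-coding genes in that table it was 60.7% and 62.7% in DKO and 63.3% and 62.2% in parental lists. In ESCs the Hox share was at most 15.4%, in WDR5WT replicate 2, where 54.9% of all genes had an end peak. Of the 39 genes, 6 (15.4%) had an end peak in at least 1 ESC list, against 59.2% of all genes.

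**Figure D2:**
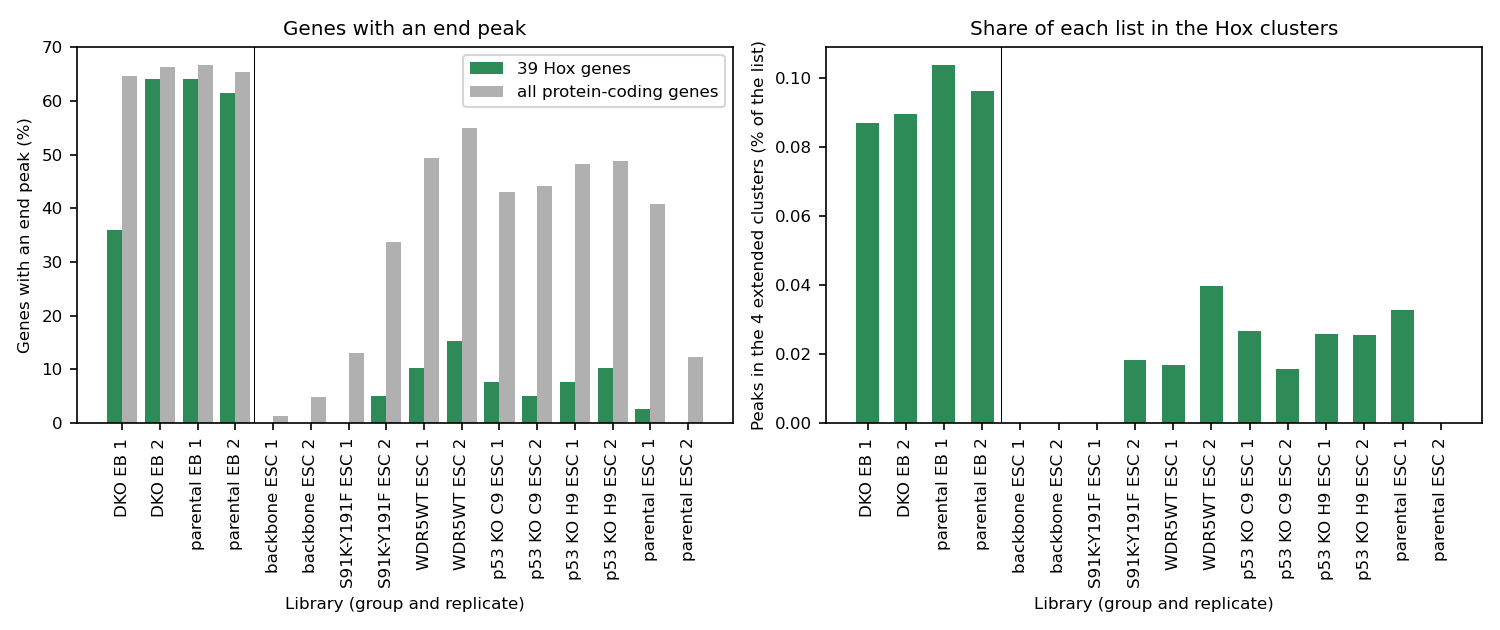
Left, share of the 39 Hox genes (green) and of 21883 protein-coding genes (grey) with an end peak in each list, in %. Right, share of each list's peaks that lie in the 4 extended Hox clusters, in %. The Hox share of genes is 35.9% to 64.1% in embryoid body lists and 0% to 15.4% in ESC lists, and the right panel runs from 0.0871% to 0.104% in embryoid body lists and from 0 to 0.0397% in ESC lists.

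The Hox peaks that were called were weak ones within their lists. The within-list percentile is the share of a list's peaks whose signal (ESCs) or fold enrichment (embryoid bodies) is at or below that of the peak. The median percentile of Hox cluster peaks was 32.8% and 27.1% in DKO embryoid bodies and 28.5% and 29.4% in parental embryoid bodies. In the 8 ESC lists that held any, it was between 16.9% (parental replicate 1) and 47.3% (C9 replicate 1). In embryoid bodies, the one peak above the 90th percentile was in parental replicate 2, at the 91.6th, with a fold of 5.66. It lay in the flank downstream of Hoxb1, a hindbrain gene, at chr11:96397030-96397682, and this region was in all 4 lists, with folds of 3.79 and 4.35 in DKO and 4.79 and 5.66 in parental embryoid bodies.

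In embryoid bodies, 13 of the 39 Hox genes (33.3%) had an end peak in all 4 lists, against 61.2% of all genes. They were Hoxa13, Hoxb1, Hoxb2, Hoxb7, Hoxb8, Hoxc6, Hoxc10, Hoxc11, Hoxc13, Hoxd1, Hoxd3, Hoxd9 and Hoxd13. At Hoxb1, DKO replicate 1 had only the downstream end peak and DKO replicate 2 only the start peak. No single Hoxb1 end region was thus in all 4 lists. By cluster the 13 genes were 1 of 11 in Hoxa, 4 of 10 in Hoxb, 4 of 9 in Hoxc and 4 of 9 in Hoxd. By position along the axis they were 4 of 12 anterior, 3 of 11 central and 6 of 16 posterior genes, with no test of a difference between classes. Of the 4 paralogues numbered 13, the last genes of the clusters, 3 had end peaks in all 4 lists. A further 9 genes, namely Hoxa2, Hoxa9, Hoxa11, Hoxb3, Hoxb5, Hoxb6, Hoxc4, Hoxd10 and Hoxd11, had none in any of the 16 lists (23.1%, against 26.5% of all genes).

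Hoxd1, an anterior gene, had the highest end region of Hoxd by median percentile (chr2:74762638-74763810). Its folds were 4.14 and 4.30 in DKO and 4.15 and 4.82 in parental embryoid bodies. Hoxd3, an anterior gene whose paralogues act in neck vertebrae, came next in that cluster. Its end region (chr2:74711919-74712519) had folds of 4.05 and 4.23 in DKO and 3.87 and 3.51 in parental embryoid bodies. The 2 groups overlapped at Hoxd1, and both DKO values were above both parental ones at Hoxd3. Folds were set by the authors within each list, so they are given side by side here and throughout with no test.

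In Hoxb the leading end region spanned the downstream end of Hoxb8 and the start of Hoxb7 (chr11:96285247-96285709) and counts for both. The start window of Hoxb8 had no peak in any list. Its folds were 3.88 and 3.10 in DKO and 4.04 and 4.80 in parental embryoid bodies. The next was at the downstream end of Hoxb2, a hindbrain segment gene (chr11:96354386-96354978), with folds of 3.10 and 3.78 in DKO and 3.61 and 4.03 in parental lists. The group ranges of Hoxb2 overlapped, and those of the Hoxb8 and Hoxb7 region did not.

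In Hoxc the leading end region was at the start of Hoxc13, a gene of hair and nail formation (chr15:102920595-102922075). Its folds lay close together, at 3.71 and 3.78 in DKO and 3.77 and 3.98 in parental embryoid bodies. Hoxc11, a posterior hindlimb gene, came next (chr15:102955712-102956416). Its folds were 3.69 and 3.11 in DKO and 4.23 and 3.32 in parental embryoid bodies, with overlapping ranges.

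In Hoxa the leading end region was at the start of Hoxa13 (chr6:52260739-52261131). It was missing from DKO replicate 1, had a fold of 3.87 in DKO replicate 2, and had 4.01 and 4.58 in parental embryoid bodies. DKO replicate 1 had another Hoxa13 end peak inside the gene, with a fold of 2.73. The next Hoxa end region was near the start of Hoxa10 (chr6:52240482-52240681) and was seen in DKO replicate 2 alone, with a fold of 3.80.

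**Figure D3:**
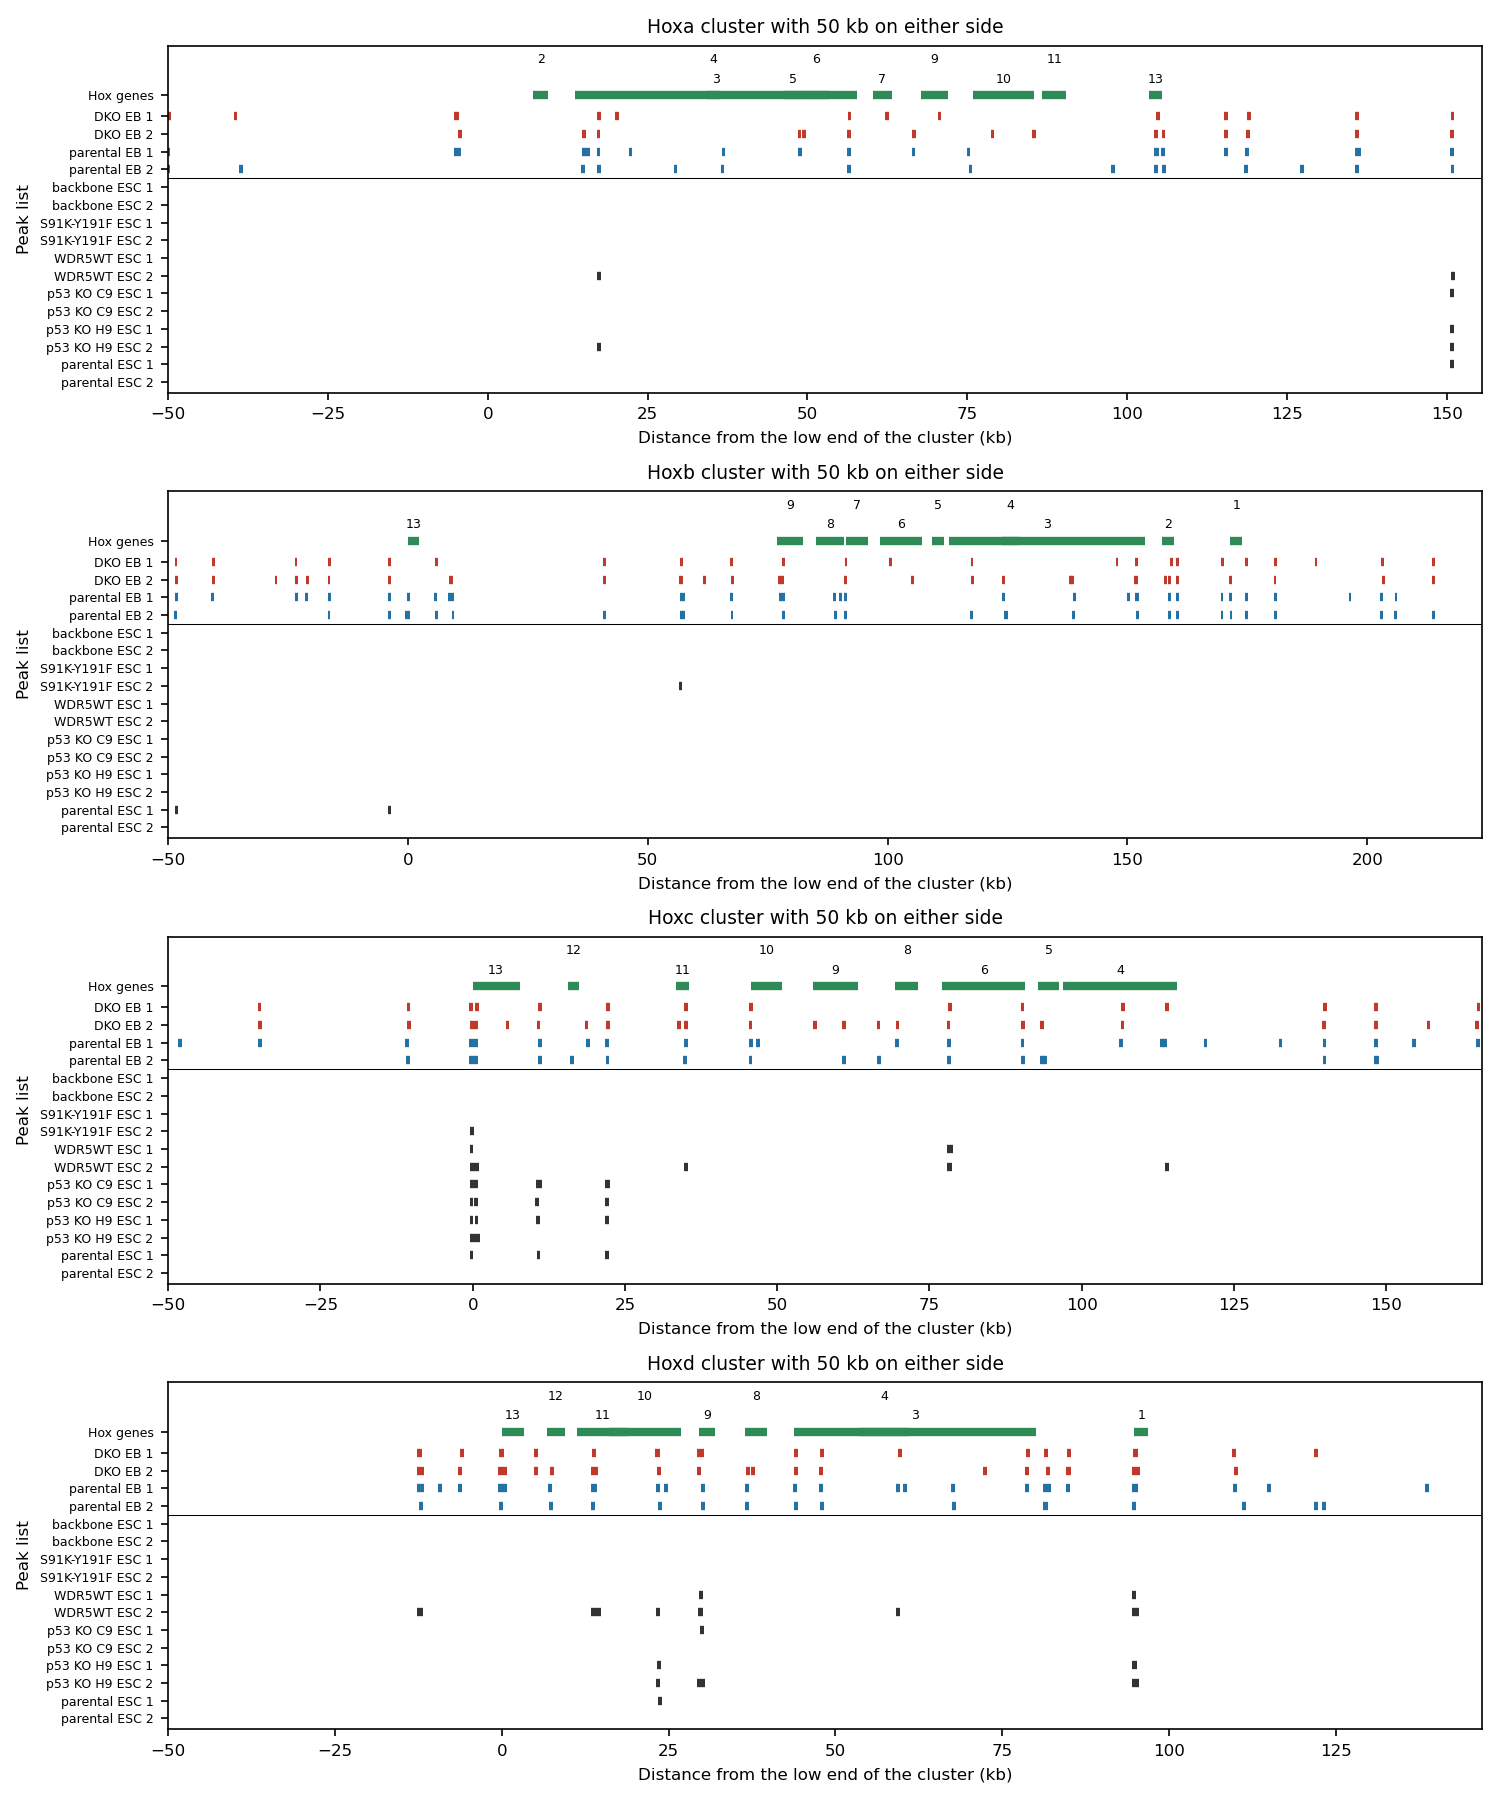
Peaks of the 16 lists (rows) along the 4 Hox clusters with 50 kb on either side; the x axis is the distance from the low end of each cluster in kb. Red marks DKO embryoid bodies, blue parental embryoid bodies, black ESCs, and green bars with numbers are Hox genes; 1 of the 39 genes and its peaks are not drawn. Embryoid body peaks recur at the same places across lists, and ESC peaks fall at a few of those places, with none in Hoxb in the WDR5WT, C9 and H9 lists.

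The comparison of DKO with parental embryoid bodies asks whether loss of WDR5 and p53 changes open chromatin as cells differentiate. The Hox clusters took 0.0884% ± 0.00187 of the peaks in DKO and 0.100% ± 0.00528 in parental embryoid bodies (SD, n = 2 each). The groups did not overlap, and the difference of -0.0118 percentage points gave p = 0.33 in a two-sided exact permutation test, the smallest that 2 libraries against 2 allow. End peaks were present at 19.5 ± 7.78 Hox genes in DKO and 24.5 ± 0.707 in parental embryoid bodies (SD, n = 2 each), with p = 1 in the same exact test. By start windows, for the 22 genes in the promoter table, a peak was present at 7.5 ± 3.54 genes in DKO and 8 ± 1.41 in parental embryoid bodies (SD, n = 2 each; exact permutation p = 1). The groups overlapped in both gene counts, and none of these measures could have reached 0.05 in this design.

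No Hox gene had an end peak in both DKO embryoid body lists and neither parental one, against 0.695% of all genes. The reverse held for 2 Hox genes, Hoxa4 and Hoxb13, which is 5.13% of 39 against 0.818% of all genes. Hoxa4 is an anterior gene of the hindbrain and neck, and its end region (chr6:52191782-52192130) lies just upstream of its start, within the Hoxa3 span. It was not called in DKO replicates 1 and 2, and had folds of 3.37 and 3.96 in parental embryoid bodies, at percentiles of 45.8% and 64.6%. Hoxb13 is a posterior gene of tail and prostate, and its end region spans its start (chr11:96194151-96194545). It was not called in either DKO list and had folds of 2.68 and 2.75 in parental lists, at percentiles of 8.29% and 8.25%. Hoxa4 was thus called mid-list and Hoxb13 near the bottom of the list. By start windows, Hoxd9 had a peak in both DKO lists and in neither parental list, and no Hox start window showed the reverse. The parental end peaks of Hoxd9 lay downstream of that window. The share of all genes with these start window patterns was not counted.

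Hoxb13 was no longer called in either parental list when only the 50% of peaks with the smallest p were kept in every list. Hoxa4 was then called in 1 of the 2 parental lists. End peaks in both parental lists but not in both DKO lists were seen at 8 Hox genes, against 2.62% of all genes, and the reverse at 0, against 1.59%. The 8 include Hoxa4 and Hoxb13, and the other 6 were missing from DKO replicate 1 alone. These 6 genes, among them Hoxa10, Hoxb4 and Hoxd8, had end peaks in the other 3 lists and not in DKO replicate 1, which is 15.4% of the Hox genes against 1.36% of all genes. At Hoxa10 those lists shared no end peak. DKO replicate 2 had one near the start and both parental lists had one at the other end of the gene. No Hox gene was missing from only DKO replicate 2, parental replicate 1 or parental replicate 2, against 0.439%, 0.228% and 0.667% of all genes. Regions merged over the whole clusters did not single out DKO replicate 1. Of those in 3 lists, more lacked only parental replicate 2 than lacked only DKO replicate 1. The Hox clusters took 0.0871% of the peaks in DKO replicate 1 and 0.0897% in DKO replicate 2.

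The gene end pattern of DKO replicate 1 was noticed after the values were seen and has no test. DKO replicate 1 was not the shortest list, at 78106 peaks against 75673 in parental replicate 2. It also had fewer end peaks among the 20 Hox cofactors and retinoid or caudal regulators, at 15 genes, than DKO replicate 2 (20) and the parental lists (19 and 18). With a window of 500 bp, DKO replicate 1 had end peaks at 11 Hox genes, DKO replicate 2 at 23, and the parental lists at 22 and 21. With 2500 bp the numbers were 25 and 32 in DKO and 33 and 28 in parental embryoid bodies. The number of Hox genes missing from DKO replicate 1 alone was 6 at 500 bp (against 1.47% of all genes) and 5 at 2500 bp (against 1.32%). The genes changed with the window, and only Hoxa10, Hoxb4 and Hoxd8 were among them at every window. Hoxa13 and Hoxb1 came in at 500 bp, and Hoxc5 and Hoxc12 at 2500 bp, where Hoxb9 and Hoxd12 dropped out. Without DKO replicate 1, the lone DKO list had 25 Hox genes with an end peak, against 25 and 24 in parental lists.

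Merging the 4 embryoid body lists gave 130 regions in the Hox clusters. Of these, 39 were in all 4 lists (30.0%, against 28.4% of all 149618 regions), 25 in 3, 18 in 2 and 48 in 1. The Hoxb cluster, the longest, had 41 regions, Hoxc 32, Hoxa 29 and Hoxd 28. Gene ends held 43 regions, gene bodies 31, stretches between genes 15 and the flanks 41. In all 4 lists were 15 of the gene end regions, 6 of those in gene bodies, 5 between genes and 13 in the flanks. The median percentile was 43.8% for regions in all 4 lists, 28.3% for those in 3, 19.3% for those in 2 and 11.7% for those in 1, so regions seen once were mostly weak calls.

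**Figure D4:**
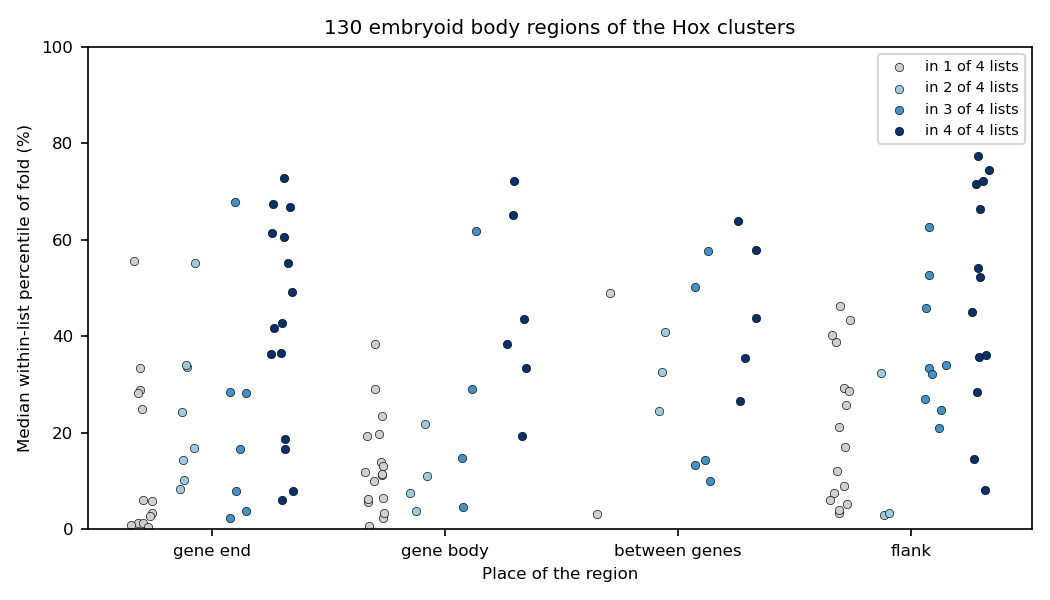
The 130 embryoid body regions of the Hox clusters by place (x axis) and by the number of lists that held them (colour), with the median within-list percentile of fold in % on the y axis. Regions in 1 list have a median of 11.7% and regions in all 4 lists one of 43.8%, with wide overlap in each place.

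One region was found in both DKO embryoid body lists and neither parental one (0.769% of 130, against 4.69% of all regions). It lay between Hoxd13 and Hoxd12 (chr2:74673030-74673251), with folds of 3.46 and 3.0 in DKO and no peak in either parental list. The reverse held for 6 regions (4.62%, against 4.27% of all regions), so the parental share was at the background. Besides the Hoxa4 and Hoxb13 regions, these were a region at the end of Hoxa10 near Mir196b (chr6:52230265-52230819), one inside Hoxb8 (chr11:96282992-96283388), one in the flank beyond Hoxb1 (chr11:96399864-96400260) and one inside Hoxd3 (chr2:74735489-74736044). The Mir196b region was absent from both DKO lists and had folds of 2.94 and 3.40 in parental lists. The other 3 had parental folds of 2.51 to 2.93 and, with no peak in DKO lists, sat at percentiles of 1.95% to 18.3%.

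In ESCs, 18 regions were found in the Hox clusters, and every one overlapped an embryoid body region, 16 of them one that was in all 4 embryoid body lists. Among all 52480 ESC regions, 71.8% overlapped an embryoid body region, in however many lists it was. The share of all ESC regions that overlapped one in all 4 lists was not counted, so the 16 have no background. Seen from the other side, 13.8% of Hox embryoid body regions had an ESC peak, against 25.9% of all embryoid body regions. For regions in all 4 embryoid body lists these shares were 41.0% for Hox and 60.5% for all. The lists differ in how they were made, so these shares are descriptions.

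By the 1 kb end peak rule, Hoxc13 was the Hox gene most often called in ESCs, with an end peak in 8 of 12 lists. Its signal was 302 in S91K-Y191F replicate 2, 621 and 1337 in WDR5WT, 561 and 434 in C9, 457 and 628 in H9, and 601 in parental replicate 1. It was not called in either backbone list, in S91K-Y191F replicate 1 or in parental replicate 2, which are the 4 shortest lists. The WDR5WT replicate 2 value, at the 82.5th percentile, was the highest percentile of a Hox peak in the 12 ESC lists.

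Hoxd1 and Hoxd9 had end peaks in 4 ESC lists each. Hoxd1 was called in both WDR5WT lists, with signals of 265 and 509, and in both H9 lists, with 447 and 384, but not in C9 or parental lists. Hoxd9, a posterior limb and trunk gene, was called in both WDR5WT lists with 369 and 344, in C9 replicate 1 with 265 and in H9 replicate 2 with 517. These peaks cover the capital stretches of the start windows above, apart from that of C9 replicate 1, which lay downstream of the Hoxd9 window. The inner start of Hoxd10 (chr2:74691284-74691940 as a region) was called in WDR5WT replicate 2, both H9 lists and parental replicate 1, with signals of 243 to 385.

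Hoxc6, a thoracic gene, had end peaks in both WDR5WT lists and in no other ESC list, with signals of 218 and 332 (percentiles of 5.45% and 27.8%). Hoxc11 had one in WDR5WT replicate 2, with a signal of 263. Between the genes of Hoxc, the regions chr15:102931366-102932550 and chr15:102942833-102943707 were each called in both C9 lists, in H9 replicate 1 and in parental replicate 1, and in neither WDR5WT list. A flank region beyond Hoxa13 (chr6:52305894-52306542) was called in 5 lists, namely WDR5WT replicate 2, C9 replicate 1, both H9 lists and parental replicate 1.

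The Hoxb cluster had the most peaks of the 4 clusters in embryoid bodies, at 23 and 28 in DKO lists and 30 and 27 in parental lists. In ESCs it held none in the 6 WDR5WT, C9 and H9 lists, 1 in S91K-Y191F replicate 2, between Hoxb13 and Hoxb9, and 2 in parental replicate 1, in the flank on the Hoxb13 side.

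The backbone and parental ESC comparison asks about loss of WDR5 and p53 in undifferentiated cells. Backbone lists had end peaks at 0 Hox genes and parental lists at 1 and 0 (two-sided exact permutation p = 1, the smallest possible with these tied values). No Hox gene was called in both lists of one group and neither of the other, where 7.92% of all genes were called in both parental and neither backbone list and 0.0183% the other way. At the Hox share of parental replicate 1, lists of 1535, 2492, 5174 and 5330 peaks would hold 0.504, 0.818, 1.70 and 1.75 Hox peaks if these lay evenly over the ranks. They did not, since the 5174 strongest peaks of each ESC list that long held 0.

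The rescue comparisons ask what returned WDR5 does in DKO cells. WDR5WT lists had end peaks at 4 and 6 Hox genes, against 0 and 0 in backbone lists (two-sided exact permutation p = 0.33, again the smallest possible). In both WDR5WT and neither backbone list were 4 Hox genes, namely Hoxc6, Hoxc13, Hoxd1 and Hoxd9, which is 10.3% of the Hox genes against 43.7% of all genes. None was in both backbone and neither WDR5WT list (against 0.219%). S91K-Y191F lists had end peaks at 0 and 2 Hox genes, against 0 and 0 in backbone lists (two-sided exact permutation p = 1). No Hox gene was called in both S91K-Y191F and neither backbone list, against 8.32% of all genes. The 1535 strongest peaks of every ESC list also held no Hox cluster peak. The best rank of a Hox peak was 5730, for Hoxc13 in WDR5WT replicate 2. List length and genotype cannot be told apart in these comparisons.

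WDR5WT cells and the p53 knockout clones have lists of like length and share the loss of p53, with wild-type WDR5 returned in one and native in the other. End peaks were present at 5 ± 1.41 Hox genes in WDR5WT (n = 2) and 3 ± 0.816 in p53 knockout ESCs (n = 4; SD; two-sided exact permutation p = 0.133, the smallest these tied values allow). The Hox clusters took 0.0283% ± 0.0162 of the peaks in WDR5WT and 0.0235% ± 0.00520 in p53 knockout ESCs (two-sided exact permutation p = 0.733). Both Hox measures overlapped between the groups. Over all genes, 52.2% ± 3.88 had an end peak in WDR5WT (n = 2) and 46.1% ± 2.89 in p53 knockout ESCs (n = 4; SD). These shares of all genes did not overlap and were also higher in WDR5WT. Hoxc6 was the one gene called in both WDR5WT lists and none of the 4 p53 knockout lists (2.56%, against 1.14% of all genes), and no Hox gene showed the reverse (against 0.119%). Of 15 Hox regions in these lists, 1, that of Hoxc6, was in both WDR5WT lists alone (against 3.25% of all regions), 0 were in the 4 p53 knockout lists alone (against 1.85%) and 2 were in all 6 (13.3%, against 37.2%). The Hoxc6 call lay over 500 bp from the gene end in both lists, and a window of 500 bp removed it.

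The p53 knockout and parental ESC comparison asks about loss of p53 alone. End peaks were present at 3 ± 0.816 Hox genes in p53 knockout (n = 4) and 0.5 ± 0.707 in parental ESCs (n = 2; SD). The counts were 3, 2, 3 and 4 in p53 knockout and 1 and 0 in parental lists. These counts did not overlap, and the two-sided exact permutation p of 0.067 is the smallest that 4 against 2 allow. By start windows, for the Hox genes in the promoter table, the groups overlapped. A peak was then present at 1.25 ± 1.5 genes in p53 knockout (n = 4) and 0.5 ± 0.707 in parental ESCs (n = 2; SD; two-sided exact permutation p = 0.8). These start window counts were 0 and 0 in C9, 2 and 3 in H9, and 1 and 0 in parental lists. The p53 knockout spread thus lay mostly between the 2 clones. The share of peaks in the Hox clusters overlapped, at 0.0235% ± 0.00520 in p53 knockout (n = 4) and 0.0164% ± 0.0232 in parental ESCs (n = 2; SD; two-sided exact permutation p = 0.667). Parental replicate 1 had 0.0328%, above all 4 p53 knockout lists, and parental replicate 2, a list of 5330 peaks, had 0. Over all genes, 46.1% ± 2.89 had an end peak in p53 knockout and 26.6% ± 20.1 in parental ESCs. No Hox gene was called in both parental and none of the p53 knockout lists (against 0.356% of all genes). Chromosome 6, which carries Hoxa, took 5.94% to 6.51% of the peaks in p53 knockout lists and 6.90% and 7.52% in parental lists, and its part in the Hoxa counts was not tested.

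Genes known to act with or on Hox genes were counted for comparison. The list of 20 Hox cofactors and retinoid or caudal regulators includes Meis and Pbx genes, whose proteins bind DNA with Hox proteins, and Cdx genes, which activate trunk Hox genes. All 4 embryoid body lists had end peaks at 15 of them (61.2% of all genes did) and none was in one embryoid body group alone. Both WDR5WT lists but neither backbone list had them at 12 (against 43.7% of all genes). Between WDR5WT and p53 knockout ESCs, Rarg, a retinoic acid receptor gene, was called in both WDR5WT lists alone, as were 1.14% of all genes. Of 22 chromatin regulators of Hox genes, 20 had end peaks in all 4 embryoid body lists and none was in one group alone, while 15 were in both WDR5WT and neither backbone list. Ring1, a Polycomb subunit gene, was called in both WDR5WT and none of the p53 knockout lists. Posterior neural markers, 5 genes that accompany Hox expression in hindbrain and spinal cord, had end peaks at 3 and 5 genes in DKO and 5 and 5 in parental embryoid bodies. Among protein-coding neighbours of the clusters, Evx2 beside Hoxd13 had an end peak in both DKO lists and parental replicate 1, Ttll6 beside Hoxb13 in all 4 embryoid body lists, and neither in any ESC list.

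Wdr5 and Trp53 themselves had end peaks in all 4 embryoid body lists, DKO included. The labels do not say which part of either gene was deleted, so these peaks check nothing about the genotypes.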

How the data were processed

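The authors deposited 1 peak list per library on build mm10. The submitters' processing notes name MACS2 2.1.2, Genrich 0.6, DESeq2, SAMtools and Bowtie2 2.3.5, with no roles. The deposited ESC lists give a score, a signal of unstated scaling and a −log10 p per peak, and their caller is not given in the sources used here. The deposited embryoid body lists give a score, a ratio (fold enrichment) and −log10 p and q values. Neither kind holds read counts, so depth is unknown. Transposition ran at 37 C for 30 min, per the labels.

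Only peaks of autosomes 1 to 19 and of X and Y were used. Peaks of the compared lists that shared 1 bp or more formed a region. Signals and folds were used only to describe single peaks and to rank them within a list. Gene spans, start windows and microRNAs came from RefSeq tables of GRCm38.p6. Groups followed the labels. A gene or region was in one group only when every list of that group and no list of the other had a peak. Numbers per list were tested two-sided by exact permutation over libraries, and counts have no test but stand beside the same share of all genes or regions. Named were Hox genes in one group only or in none of the 16 lists, the 2 leading end regions per cluster by median percentile, and, per cluster, the regions in one group only, up to 5 per direction (no Hox region reached 10 of 12 ESC lists). Other names were chosen after their values were seen, among them the genes with any ESC end peak, the genes missing from DKO replicate 1, the microRNAs, the flank peak beyond Hoxb1 and the Hoxc regions between genes. The members and lists were chosen with earlier results of these data known. Replicate numbers are only numbers in the labels. The code was tested on simulated lists. Python 3.11.15, numpy 2.4.6, pandas 2.3.3 and matplotlib 3.10.9 were used. Alternatives were other windows, flanks and overlaps, equal list length, the 50% of peaks with the smallest p and leaving out each library. One of the 39 genes enters the counts but is not reported on its own here.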

Additional observations from a re-analysis of the deposited data

Results flagged for a closer look

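Among the 4 p53 knockout lists, 8 Hox measures were screened for a list far from the other 3. C9 replicate 2 stood low in the share of its peaks that lie in the Hox clusters, at 0.0157%, whereas C9 replicate 1 and the H9 lists lay between 0.0257% and 0.0266%. H9 replicate 2 stood low in the number of Hoxc cluster peaks, at 2, whereas the other 3 lists had 4 each. The Hoxc numbers are small and tied. Chance gives about 1 such case in 20 for each measure screened.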

How the results depend on the processing

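At equal list length (the strongest peaks of every list compared, at the length of the shortest), the Hox share and the number of Hox genes with an end peak differed by 0 in WDR5WT against backbone, S91K-Y191F against backbone, backbone against parental and p53 knockout against parental ESCs. The genes in one group only were then 0 in WDR5WT against backbone, 0 in WDR5WT and 0 Hox regions in WDR5WT against p53 knockout, 0 in p53 knockout against parental ESCs, and 1 (Hoxa4) in parental against DKO embryoid bodies. With the 50% of peaks of smallest p, the share difference was 0 in S91K-Y191F against backbone and turned to -0.00218 percentage points, against 0.00476 in full, in WDR5WT against p53 knockout; the gene number differed by 0 in both. One group alone then held 1 gene in WDR5WT against backbone, 0 genes and 0 regions in WDR5WT against p53 knockout, 0 genes in p53 knockout against parental ESCs, and, in parental embryoid bodies, 0 genes and 3 regions. A window of 500 bp left 0 genes in WDR5WT against p53 knockout and 0 in p53 knockout against parental ESCs; one of 2500 bp left 0 in the last and gave 1 (Hoxb6) in DKO embryoid bodies. By annotated start windows, chosen after seeing the data, S91K-Y191F and backbone ESCs differed by 0. The cause was not tested beyond the shorter lists that the first 2 settings make by construction.

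Leaving out each library in turn, the DKO minus parental difference in Hox genes ranged from -10.5 to 0.5 and in share from -0.0156 to -0.00809; 0 to 1 genes and 4 to 15 regions were then in DKO alone, and 2 to 8 genes and 9 to 23 regions in parental embryoid bodies alone. The share difference ranged from -0.00672 to 0.0162 for WDR5WT against p53 knockout, from -0.00932 to 0.0235 for p53 knockout against parental, from -0.0328 to 0 for backbone against parental and from 0 to 0.0185 for S91K-Y191F against backbone ESCs. The difference in Hox genes ranged from 1 to 3 for WDR5WT against p53 knockout (2 in full; 3 without WDR5WT replicate 1 and 1 without WDR5WT replicate 2), from -1 to 0 for backbone against parental and from 0 to 2 for S91K-Y191F against backbone ESCs. Genes in one group only ranged from 4 to 6 and from 1 to 2 in WDR5WT (against backbone, against p53 knockout), from 0 to 1 in p53 knockout against WDR5WT, from 0 to 2 in S91K-Y191F against backbone, from 1 to 2 in p53 knockout against parental, and from 0 to 1 in parental against backbone ESCs. Hox regions ranged from 1 to 6 in WDR5WT and from 0 to 2 in p53 knockout ESCs alone. Dropping a library makes such counts easier to reach by construction.

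Same-numbered libraries deviated together only weakly (correlations of -0.201 to 0.220 over regions), so the numbers are only names. With the replicate block the DKO difference in share of -0.0118 had an exact permutation p of 0.5, and no call changed; with crossed numbers for S91K-Y191F against backbone ESCs, p stayed at 1. Flanks of 0 or 100 kb, merging across 200 bp, an overlap of 50% and leaving out chromosome 8 moved no result across its threshold or sign. List length limits all ESC comparisons of Hox genes.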
